A study of Mus musculus with 6 samples.

Results

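The Prss serine protease family, defined here by symbol, was examined in testes of Hsf5 knockout and control mice at postnatal day 16. Members were the protein-coding rows of the deposited table whose symbol is Prss followed by a number, which gave 29 genes of 29333 rows. The labels list 6 whole-testis samples, 3 per group, and 4 of them have values here: control 1, control 2, knockout 1 and knockout 3. Knockout animals were Hsf5-/-. Control samples are labelled wild type, but the design text allows either WT or Hsf5+/- animals, and the genotype of each control library is not known here. No label states that the numbered samples are different animals. P-values therefore reflect sample-to-sample spread, which may be technical.

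Serine proteases of the trypsin fold cut proteins with a triad of histidine, aspartate and serine. Most are made as precursors that need a cut to become active. Many mouse Prss genes are expressed in male germ cells. There they encode secreted proteins, proteins of the acrosome (the vesicle that a sperm releases at the egg) or proteins held on the cell surface by a glycosylphosphatidylinositol (GPI) anchor. Others act elsewhere: Prss12 encodes neurotrypsin of synapses, Prss16 a protease of the thymus and Prss8 prostasin of epithelia. HSF5 is a member of the heat shock transcription factor family expressed in spermatocytes.

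On chromosome 9, in the gene order of RefSeq's GRCm38.p6 annotation, Prss42, Prss44, Prss43, Prss45, Prss46 and Prss50 follow each other with no other protein-coding gene between them. On chromosome 1, Prss39 and Prss40 flank Cfc1. The 250 bases before the listed start are shown for the cluster genes in the RefSeq promoter table, because Prss42 and Prss45 fell while their neighbour Prss50 did not. They are also shown for Prss39 and Prss40, whose promoters resemble each other. Each reads 5′ to 3′ on the gene's own strand (build GRCm38.p6, while the submitters' processing notes name mm39), and capitals mark motif matches defined after the sequences.
Prss42 (chr9:110797935-110798184, plus strand): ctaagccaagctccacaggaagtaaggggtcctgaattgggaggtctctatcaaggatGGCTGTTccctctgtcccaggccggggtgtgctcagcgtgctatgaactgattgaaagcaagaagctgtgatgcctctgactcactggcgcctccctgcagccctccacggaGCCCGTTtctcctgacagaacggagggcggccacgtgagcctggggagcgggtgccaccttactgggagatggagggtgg
Prss45 (chr9:110834338-110834587, plus strand): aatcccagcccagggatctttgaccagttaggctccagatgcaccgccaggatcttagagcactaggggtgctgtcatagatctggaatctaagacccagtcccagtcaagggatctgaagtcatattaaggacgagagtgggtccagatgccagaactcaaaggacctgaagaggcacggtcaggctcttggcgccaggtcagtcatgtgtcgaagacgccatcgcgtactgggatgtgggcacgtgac
Prss46 (chr9:110844256-110844505, plus strand): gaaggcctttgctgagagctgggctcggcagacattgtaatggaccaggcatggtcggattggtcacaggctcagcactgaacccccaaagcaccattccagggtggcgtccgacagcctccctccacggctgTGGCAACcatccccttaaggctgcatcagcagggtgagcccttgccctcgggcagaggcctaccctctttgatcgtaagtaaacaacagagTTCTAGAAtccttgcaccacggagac
Prss50 (chr9:110857714-110857963, plus strand): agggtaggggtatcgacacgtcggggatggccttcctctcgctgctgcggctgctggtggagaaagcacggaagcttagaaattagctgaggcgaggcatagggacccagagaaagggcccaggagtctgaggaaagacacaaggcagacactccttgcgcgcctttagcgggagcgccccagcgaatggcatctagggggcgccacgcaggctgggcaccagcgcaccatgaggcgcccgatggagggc
Prss39 (chr1:34498162-34498411, plus strand): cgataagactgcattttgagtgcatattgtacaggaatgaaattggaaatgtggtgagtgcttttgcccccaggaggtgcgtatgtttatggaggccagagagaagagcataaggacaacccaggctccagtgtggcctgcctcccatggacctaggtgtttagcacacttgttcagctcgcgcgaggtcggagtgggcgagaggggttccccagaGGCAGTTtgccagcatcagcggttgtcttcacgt
Prss40 (chr1:34560944-34561193, minus strand): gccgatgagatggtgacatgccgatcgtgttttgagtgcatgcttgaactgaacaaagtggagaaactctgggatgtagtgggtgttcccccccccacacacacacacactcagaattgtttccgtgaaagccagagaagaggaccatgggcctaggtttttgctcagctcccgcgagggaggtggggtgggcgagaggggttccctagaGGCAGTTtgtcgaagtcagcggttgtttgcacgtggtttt

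Each of 5 motifs was searched on both strands in these windows, for 22 members with a table entry and for 27025 genes in all. The MYB letters AACNGNC occurred in 10 of 22 member promoters (45.5%) and in 27.6% of all promoters. Among the promoters shown they occurred in Prss42, Prss39 and Prss40 but not in Prss45, Prss46 or Prss50. Elsewhere they occurred in Prss21, Prss47 and Prss56, which fell, and in Prss36, which rose. They also occurred in Prss12, which was tested and not called, and in Prss33 and Prss54, which were not tested. The 7 members without an entry to search include Prss43, Prss44 and Prss59, which fell. Of 2 starts listed for Prss50 and 7 for Prss23, only the first was used. In Prss39 and Prss40 the match GGCAGTT began 34 and 40 bases before the start. Of 231 pairs of member promoters, Prss39 and Prss40 shared the longest identical run, the 19 bases gtgggcgagaggggttccc just before that match. The heat shock element letters TTCNNGAA occurred in 1 member, Prss46, 26 bases before the start, and in 7.10% of all promoters. GAANNTTC, the other order of that element, occurred in no member promoter and in 6.78% of all. The letters GTTGCCA, bound by RFX factors, occurred in Prss46 alone among members and in 3.69% of all promoters, and the CRE core TGACGT in no member and in 6.56% of all. These matches describe letters, not binding.

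Depth was 16209093 to 18557898 recovered reads per library. Hsf5 had normalised read counts of 2541 and 3147 in the controls and 1926 and 1602 in the knockouts, and such counts do not tell which part of its transcript is left. Germ cell markers differed between the groups and also between the controls. Of 18 tested markers of pachytene and diplotene spermatocytes, 17 fell, and their summed value was 70365 and 105449 in the controls against 25903 and 20327 in the knockouts. Of 7 tested spermatid and acrosome markers 4 fell, and the list's sums were 2124 and 4323 against 750 and 551. Control 2 exceeded control 1 in the pachytene list by a median log2 difference of 0.74, against 0.02 over all tested genes. Of 18 early prophase markers 5 fell (median log2 fold change -0.16), and of 16 Sertoli cell markers 4 rose, with a median of 0.20. Of 15 spermatogonia markers 4 rose and 1 fell, with a median of 0.21. In whole testis, fewer cells of a type and less RNA per cell cannot be told apart, and the part of these differences in the results on Prss genes was not tested.

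Detection came first. All 29 members had at least 1 read in some library, since rows without reads are not in the table, and 21 had a read in every library. The 29 are thus not every mouse Prss gene: RefSeq lists Prss22 beside Prss30, and no row has that symbol. A mean normalised read count of at least 10 over the 4 libraries was reached by 20 members, which were tested. The other 9 members held 107 reads in all libraries together, and their highest mean was 6.32. Levels between genes were compared as RPKM, recovered reads scaled by library depth and by exon length from GENCODE M21. Prss50 was highest, at 107 and 111 RPKM in the controls and 168 and 132 in the knockouts. It encodes a testis protease-like protein whose catalytic serine is replaced by threonine. Prss35, a member that lacks the catalytic serine as well, followed at 62.6 and 54.6 RPKM in the controls and 69.4 and 75.5 in the knockouts. Prss59 (17.6 RPKM, mean of the controls) and Prss45 (16.5) came next, and their control ranges overlapped. The remaining tested members had control means from 0.130 RPKM for Prss16 to 6.63 for Prss48. Prss35 and Prss50 together held 75.7% and 63.1% of the family's reads in the controls and 84.5% in both knockouts. The family took 0.0491% to 0.0573% of all reads in every library.

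Of the 20 tested members, 9 fell, 1 rose and 10 were not called (limma on log2 values, Benjamini-Hochberg adjusted p under 0.05 over all genes). Over all 17480 tested genes, 13.5% fell and 3.28% rose. The 4 tested members Prss59, Prss39, Prss21 and Prss56 had a knockout mean under 10 and so passed the filter through the controls alone, and Prss16 had a control mean under 10. The share of members that fell and the median log2 fold change of the members are therefore descriptions and not tests. The median log2 fold change was -1.17 for tested members and 0.01 for all tested genes. Groups did not overlap in 11 tested members that were lower and 7 that were higher in the knockouts, against 31.9% and 29.8% of all tested genes. The edgeR quasi-likelihood test on recovered reads gave the same 9 falls and the same rise, with 12.3% and 2.96% of all genes called lower and higher. DESeq2 on those reads gave the same 9 falls and 2 rises, against 13.5% and 3.35%. The authors' deposited table, in which 11.3% of genes with an adjusted p were lower and 2.26% higher at the same threshold, has the same 9 members lower and 2 higher. The second rise in both was Prss50. The limma calls rest on its model of the spread. With 2 libraries per group and no mean-variance trend, none of the 20 members was called. In that fit 13 members had an unadjusted p under 0.05, beside 4283 of all 17480 tested genes. The 13 include the 4 that passed the filter through the controls alone. Without a filter on low values 2 members, Prss44 and Prss59, were called.

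**Figure D1:**
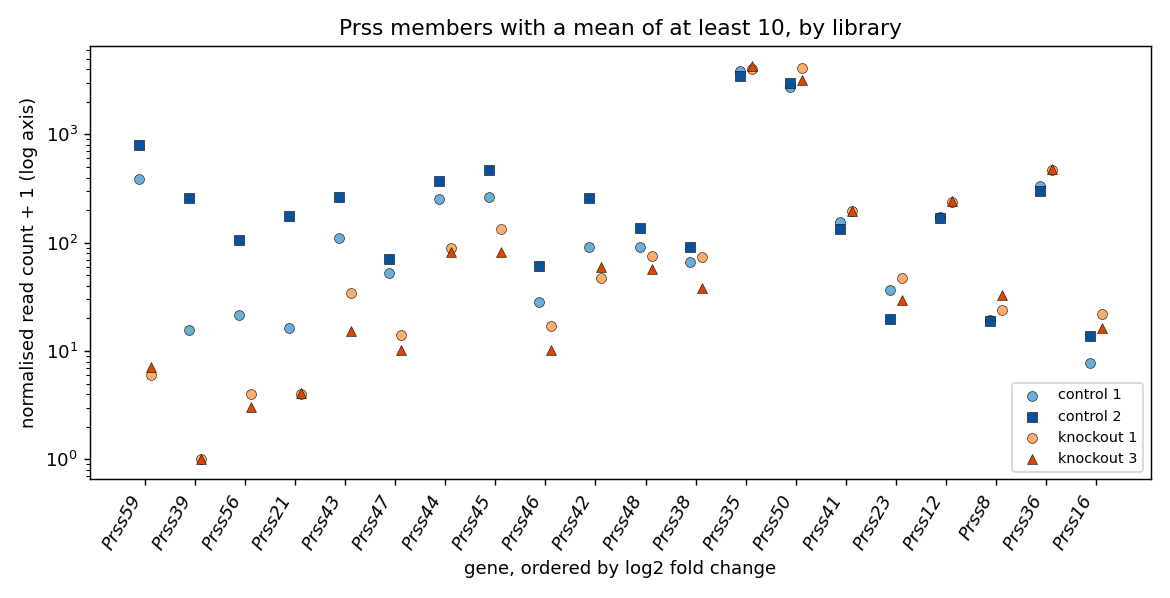
Normalised read count plus 1 (log axis) of the 20 tested Prss members in each of the 4 libraries, ordered by log2 fold change, with controls in blue and knockouts in orange. Prss59, Prss39, Prss56 and Prss21 are near the bottom in both knockouts, and control 2 lies above control 1 in all 9 genes that fell.

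**Figure D2:**
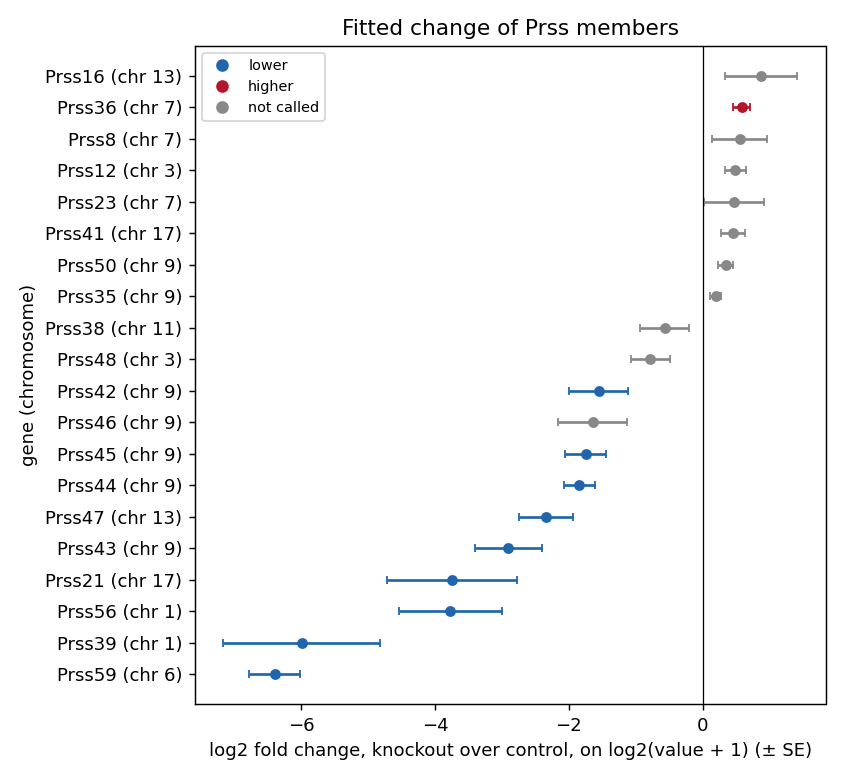
Fitted log2 fold change of knockout over control on the log2(value + 1) scale with its standard error, for each tested member, coloured by its call. Prss42, Prss43, Prss44 and Prss45 of chromosome 9 are called lower, while Prss50 of the same cluster lies right of 0 without a call.

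The chromosome 9 cluster holds several of the testis serine proteases called TESSP, which are germ cell proteins. Of its 6 genes, 4 fell, namely Prss42, Prss43, Prss44 and Prss45. Prss44 (TESSP-4) had normalised read counts of 250 and 373 in the controls and 88.2 and 80.9 in the knockouts. Its group means were 311 ± 86.8 and 84.6 ± 5.14 (SD, n = 2), which gave a log2 fold change of -1.84 (SE 0.23; adjusted p = 0.00116 by limma with Benjamini-Hochberg adjustment). Both knockouts lay well below both controls.

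Prss43 (TESSP-3) had 110 and 263 in the controls and 33.1 and 14.3 in the knockouts, which left 12.7% of the control mean. Its log2 fold change was -2.90 (SE 0.49, limma adjusted p = 0.00520), the largest fall of the cluster, and it stood at -3.53 without control 1 and -2.27 without control 2. Prss45 had 265 and 473 in the controls and 133 and 82.0 in the knockouts, with 29.2% left (log2 fold change -1.75, SE 0.31, limma adjusted p = 0.00668). The groups did not overlap for either gene, but the Prss45 call was lost without knockout 3 (adjusted p = 0.0587).

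Prss42 (TESSP-2) had 91.1 and 260 in the controls and 46.1 and 58.4 in the knockouts. Control 1 stood closer to the knockouts than to control 2, although the groups did not overlap. The log2 fold change was -1.55 (SE 0.44, limma adjusted p = 0.0455). This call was the weakest of the 9, and it was lost when control 2 was left out (log2 fold change -0.80, adjusted p = 0.248, against -2.30 when control 1 was left out), without knockout 1 (0.189) and without knockout 3 (0.145).

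Prss46, with 27.1 and 59.5 in the controls and 16.0 and 9.22 in the knockouts, had a similar fitted value (-1.65, SE 0.51) and did not pass the test (limma adjusted p = 0.0628). With libraries scaled to Sertoli cell markers it was called lower (-1.85, limma adjusted p = 0.0412). Prss50, the last gene of the row, differed from the others. Its normalised read count was 2755 and 2971 in the controls and 4136 and 3183 in the knockouts. Both knockouts were above both controls, by little in knockout 3, and the log2 fold change of 0.34 (SE 0.12) was not called by limma (adjusted p = 0.0885). It was 0.45 with library totals (limma adjusted p = 0.0179) and 0.13 with libraries scaled to Sertoli cell markers (adjusted p = 0.539), and DESeq2 called it higher (adjusted p = 0.0496). Limma called it higher when knockout 3 was left out (0.53, adjusted p = 0.0298). The next gene outward, Tmie, which is no protease, had 496 and 379 in the controls and 587 and 627 in the knockouts (log2 fold change 0.48, limma adjusted p = 0.0611). Als2cl, also on chromosome 9, had 308 and 254 against 284 and 339 (0.15, limma adjusted p = 0.597). Myl3, the gene before Prss42, had 0 and 0 against 3.01 and 4.10 and was too low to be tested.

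Shares within the cluster do not depend on library scaling. Prss42 to Prss46 together made up 21.2% of the 3608 cluster reads in control 1 (95% Wilson interval 19.9% to 22.6%) and 32.5% of 4436 in control 2 (31.1% to 33.9%). They made up 7.11% of 4443 reads in knockout 1 (6.39% to 7.91%) and 7.14% of 3346 in knockout 3 (6.32% to 8.07%). The knockouts were alike and lay below both controls, while the controls differed from each other by more than counting error. These intervals cover counting error only.

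**Figure D3:**
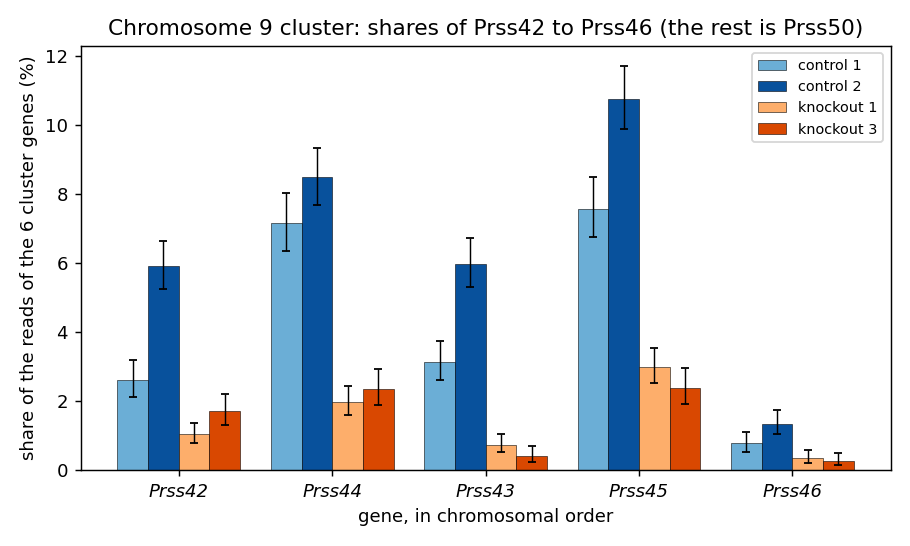
Share of the reads of the 6 chromosome 9 cluster genes held by Prss42, Prss44, Prss43, Prss45 and Prss46 in each library, with 95% Wilson intervals as error bars. All 5 shares are lower in both knockouts than in either control, and Prss50 holds the rest, 78.8% and 67.5% of reads in the controls against 92.9% in both knockouts.

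Another 5 members fell outside the cluster, and 4 of them left few reads or none in the knockouts. Prss59, a trypsin-like gene on chromosome 6, had 383 and 793 in the controls and 5.01 and 6.15 in the knockouts, so that 0.949% of the control mean remained. The log2 fold change was -6.40 (SE 0.38, limma adjusted p = 7.99e-05). It was -6.92 without control 1 and -5.87 without control 2, and the call held without each library. Its neighbour Prss58 was too low to be tested. Prss58 had 5 and 17 reads in the controls and none in the knockouts. Against a floor of 3 reads over the knockout group it was at least 7.14-fold lower. The limit was 11.1-fold without control 1 and 3.19-fold without control 2. Such limits take the control reads as they are and leave out their counting error.

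Prss39 encodes TESP1, a protease of the sperm acrosome. It had 15 reads in control 1, 261 in control 2 and none in either knockout. Against the same floor it was at least 89.9-fold lower, at least 170-fold without control 1 and at least 9.57-fold without control 2. These limits also leave out the counting error of the controls. The limma adjusted p was 0.0100, and the call was lost without knockout 3 (adjusted p = 0.0618). Its paralog Prss40 (TESP2) had no read in control 1, 22 reads in control 2, 1 read in knockout 1 and none in knockout 3. The ratio of control to knockout was 21.3 (95% exact counting interval 3.44 to 879) on reads summed within each group. That interval leaves out the difference between the controls. Since the reads of Prss40 came almost wholly from control 2, the groups overlapped, and without control 2 no control read was left. Reads of 2 similar genes could have been split between them in the authors' counting.

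Prss21, which encodes testisin, a GPI-anchored protease of sperm, had 15.5 and 178 in the controls, far apart from each other, and 3.01 and 3.07 in the knockouts. The fold of control over knockout means was 31.7, and it was 58.4 without control 1 and 5.10 without control 2. Its log2 fold change was -3.75 (SE 0.97, limma adjusted p = 0.0318), and the call did not hold without either knockout (adjusted p = 0.116 without knockout 1 and 0.147 without knockout 3). Prss56, best known for its part in eye growth, had 20.4 and 105 in the controls and 3.01 and 2.05 in the knockouts. Its log2 fold change was -3.77 (SE 0.77, limma adjusted p = 0.0119), with a fold of means of 24.8 that was 41.6 without control 1 and 8.05 without control 2. The call was lost without knockout 3 (adjusted p = 0.0799). Without control 2, Prss39, Prss21 and Prss56 no longer reached a mean of 10 and were not tested.

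Prss47, on chromosome 13, was the fall with the most similar controls, at 51.4 and 69.4 against 13.0 and 9.22 in the knockouts. The group means were 60.4 ± 12.7 and 11.1 ± 2.69 (SD, n = 2), with -2.34 as log2 fold change (SE 0.40, limma adjusted p = 0.00547). With Prss43, Prss44 and Prss59 it was 1 of the 4 falls whose call held without each library in turn.

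Among the 9 genes that fell, control 2 was above control 1 in every one, from 1.35 times for Prss47 to 17.8 times for Prss39, with a median log2 difference of 1.26. Among the other 11 tested members control 2 was above control 1 in 5. The same order of the controls was seen in the pachytene markers above, and its part in the falls was not tested. Both knockouts were below control 1, the lower control, in all 9 genes that fell. Those genes were chosen by lower values in these same knockouts, so this describes them and tests nothing. Among all tested genes, 31.9% had both knockouts below both controls.

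Members that did not fall included the most abundant ones. Prss36, which encodes polyserase-2, a protein with several protease domains, was the single rise. It had 331 and 298 in the controls and 467 and 476 in the knockouts, with group means of 315 ± 22.7 and 472 ± 6.59 (SD, n = 2). The log2 fold change was 0.58 (SE 0.13, limma adjusted p = 0.0174). It was no longer called when control 2 (adjusted p = 0.0827), knockout 1 (0.104) or knockout 3 (0.142) was left out, or with libraries scaled to Sertoli cell markers (log2 fold change 0.37, adjusted p = 0.0706).

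Prss12, the neurotrypsin gene, had 172 and 168 in the controls and 237 and 241 in the knockouts, groups that were each tight and did not overlap. Its log2 fold change of 0.49 (SE 0.16) was not called by limma (adjusted p = 0.0756), and it was 0.60 with library totals, where it was called (adjusted p = 0.0356). Prss41 (TESSP-1), a GPI-anchored testis protease, had 153 and 132 against 196 and 195, with a log2 fold change of 0.46 (SE 0.18, limma adjusted p = 0.130). Prss35 had 3819 and 3462 against 4028 and 4317, a log2 fold change of 0.20 (SE 0.08, limma adjusted p = 0.134) that was -0.01 with Sertoli scaling and 0.31 with library totals, where it was called higher (adjusted p = 0.0397). Library totals moved the median log2 fold change of all genes to 0.12 and Sertoli scaling moved it to -0.20, so these small positive values depend on the scaling.

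The other 5 tested members were not called by limma. Prss48 had 91.1 and 137 in the controls and 74.2 and 56.3 in the knockouts (log2 fold change -0.78, adjusted p = 0.106), and Prss38 had 65.9 and 91.2 against 73.2 and 36.9 (-0.57, adjusted p = 0.344). In Prss48 the groups did not overlap and in Prss38 they did. Prss23, a paralog of Prss35, had 35.9 and 18.8 against 46.1 and 28.7, which overlapped (0.47, limma adjusted p = 0.525). The prostasin gene Prss8 had 18.4 and 17.8 against 23.1 and 31.8 (0.55, limma adjusted p = 0.410). For Prss16, the thymus protease gene, there were 7 and 13 reads against 21 and 15 (0.87, limma adjusted p = 0.319).

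Of the members below the threshold of 10, 2 had more reads in the knockouts by their counting intervals, which do not cover variation between animals. Prss33 had 1 and 2 reads in the controls and 10 and 12 in the knockouts, a ratio of 7.58 (95% exact counting interval 2.28 to 39.5). Prss32 had 1 read in each control and 7 and 5 in the knockouts, a ratio of 6.20 (1.38 to 57.0). Prss53 had 1 read in the controls and 7 in the knockouts, 6 of them in knockout 3, a ratio of 7.23 (0.929 to 326). Prss27, Prss30, Prss54 and Prss57 had at most 3 reads in any library. Without a filter on low values none of these 7, nor Prss40 or Prss58, was called by limma, with adjusted p from 0.0994 for Prss58 to 0.997 for Prss54 and Prss57. In GENCODE M21, exons of Prss53 and Prss57 overlap those of other genes over 76.7% and 40.7% of their length. Exons of Prss32 overlap those of Gm15947 over 29.8% and those of Prss41, a gene with more reads, over 3.21% of their length. Exons of Prss23, Prss40, Prss38, Prss8 and Prss12 overlap a gene on the other strand over 6.03% to 22.9% of their length. Whether the counting used strand is not known here, so counts of genes overlapped on the other strand are uncertain to that extent. The 76.7% overlap of Prss53 is with Gm21974 on the same strand, where the use of strand would not separate the genes.

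Neighbouring members did not always move together. On chromosome 17, RefSeq lists Prss33, Prss41, Prss32 and Prss21 in a row, and of these only Prss21 was called, as lower, while the fitted or counted values of the other 3 were higher in the knockouts. On chromosome 7, Prss8 and Prss36 are adjacent and both had positive fitted values, with a call for Prss36. The pairs Prss39 and Prss40 on chromosome 1 and Prss58 and Prss59 on chromosome 6 had few reads or none in the knockouts. RefSeq lists 1700074P13Rik, the older name of Prss59, next to Prss58. The RefSeq order was matched by symbol, so Prss59 had no entry of its own there, while GENCODE exons were matched by gene identifier.

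Proteases of the trypsin fold outside the Prss symbols, the convertases that process precursors, and inhibitors were set beside the family. Of 15 tested trypsin-fold proteases outside the Prss symbols, 3 fell and none rose, with a median log2 fold change of 0.04. The falls were Acr, the acrosomal protease acrosin (-2.39), Tmprss12, a sperm membrane protease (-1.63), and Corin, which processes natriuretic peptides (-0.54). Limma adjusted p was 0.00130, 0.00568 and 0.0259 for these. Acr is also on the pachytene marker list. Of 7 proprotein convertases, Pcsk4, the germ cell convertase, fell (-1.38, limma adjusted p = 0.0177) and Furin, the widely expressed convertase, rose (0.38, adjusted p = 0.0141), and the median was 0.10.

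Among 10 tested Kazal, Kunitz and related inhibitors and acrosin-binding genes, 3 fell and 1 rose, with a median of 0.03. Spink2, a Kazal inhibitor of acrosin needed for sperm formation, had 729 and 1808 in the controls and 77.2 and 33.8 in the knockouts (log2 fold change -4.46, limma adjusted p = 0.000580). Log2 fold changes were -2.46 for Acrbp, which binds proacrosin, -0.92 for Wfdc15a and 0.41 for Wfdc10, the rise, which was named after its value was seen (limma adjusted p = 0.00528, 0.00268 and 0.0135). None of 12 tested serpins was called by limma, edgeR or DESeq2, and 3 had an unadjusted p under 0.05 by each tool. Of all 17480 genes, 5418 had such a p by limma, 5287 by edgeR and 4383 by DESeq2. The median of the serpins was -0.00. The most abundant serpins were Serpina5, an inhibitor in semen, and Serpinh1, a collagen chaperone, with log2 fold changes of -0.22 and 0.15 (limma adjusted p = 0.0785 and 0.349). Of 14 tested genes for ADAM3, a sperm surface protein needed for fertility, and its partners and GPI-anchor factors, 7 fell, with a median of -0.40. Adam2, Adam3 and Clgn of that list are pachytene markers as well. Cmtm2b (-8.70), Cmtm2a (-6.82) and Adam1b (-6.33) had the largest falls (limma adjusted p = 0.000153, 0.000392 and 0.000500).

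**Figure D4:**
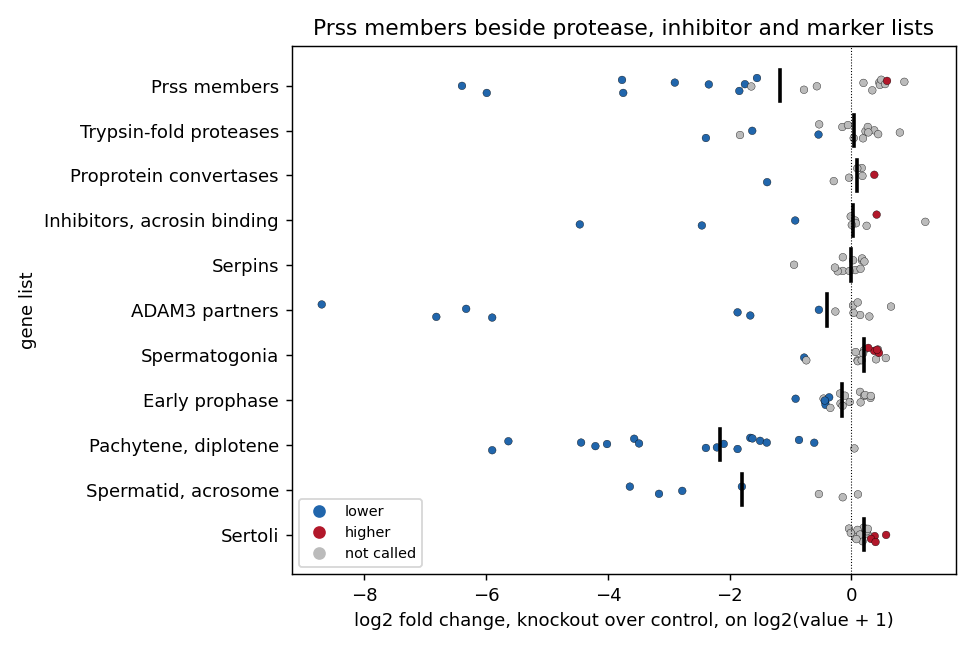
Log2 fold change of knockout over control for each tested gene of the Prss family, of the protease, inhibitor and partner lists and of the cell type marker lists, with a black bar at each median. The Prss median of -1.17 lies between the medians of the pachytene list (-2.15) and the early prophase list (-0.16). That median includes Prss59, Prss39, Prss21 and Prss56, which passed the filter on low values through the controls alone, so its place is a description. The family's genes spread from -6.40 to 0.87.

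Markers of mast cells, basophils and neutrophils and of the pancreas were sparse, while those of other somatic cell types such as Sertoli cells were not. Of 11 markers of mast cells, basophils and neutrophils, 9 are in the table and 1 reached the test. Their summed normalised read count was 34.9 and 112 in the controls and 45.1 and 34.8 in the knockouts. Of 9 pancreatic markers 7 are in the table, summing to 45.6 and 53.5 against 53.1 and 35.9, which overlapped. Their part in the values of low members was not tested.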

How the data were processed

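Whole-testis total RNA was sequenced after library preparation with an NEBNext Ultra kit (per the labels' protocols). According to the submitters' processing notes, the tools were cutadapt, Bowtie2, featureCounts and DESeq2 with build mm39; settings, strand mode and annotation: not given in the sources used here. Deposited signal values are reads divided by 1 size factor per library: in each library 100% of values were whole multiples of 1 step within 1e-06, which recovers the reads. Per the file headers, the authors' table adds log2 fold changes with standard errors, a test statistic (score), and raw and adjusted p-values.

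Members and lists were chosen with earlier results of these data known. All genes with a mean of at least 10 were fitted by limma 3.58.1 (R 4.3.3) on log2(value + 1), using its trended prior (6.3 prior and 2 residual degrees of freedom). Such fold changes understate the change of low genes. "Fell" and "rose" mean a Benjamini-Hochberg adjusted p under 0.05. Alternatives were edgeR 4.0.16 and DESeq2 1.42.0 on recovered reads, other pseudocounts, filters and scalings, and leaving out each library. The fitting code was tested on simulated data. Of each protease, inhibitor or partner list, up to 3 called genes with the largest change were named, or the 2 with the highest mean where none was called. All Prss members were named.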

Additional observations from a re-analysis of the deposited data

How the results depend on the processing

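The 9 falls and 1 rise among Prss members were 9 and 1 with a pseudocount of 0.5 and with edgeR, and 8 and 1 with a pseudocount of 5. Without a filter on low values, where 29333 genes shared the adjustment, 2 members fell (Prss44 and Prss59) and 0 rose. With a mean of at least 50, 5 members fell and 1 rose, beside 2107 falls and 593 rises among 13388 tested genes. Prss21, Prss47 and Prss56 were below that mean and were not tested, while Prss42 was tested and not called (limma adjusted p = 0.0522). Without the mean-variance trend 0 fell and 0 rose, beside 40 falls and 0 rises over all genes. Library totals gave 4 rises (Prss12, Prss35 and Prss50 added), Sertoli scaling 10 falls (Prss46 added) and 0 rises, and DESeq2 2 rises. Over all genes, 2366 fell and 573 rose, against 815 and 37 without the filter, 1513 rises with library totals, and 4177 falls and 84 rises with Sertoli scaling. Leaving out each library in turn gave 4 to 9 falls and 0 to 1 rises among members, and 1086 to 2054 falls and 71 to 308 rises over all genes. The lone library left in a group was then assumed to vary like the others. The log2 fold change of Prss35 changed sign with Sertoli scaling, to -0.0136. Among the alternative fits of single members, 211 kept direction and call, 32 lost the call and 6 gained it, and that change of sign of Prss35 was the 1 reversal. The causes were not tested. No paired analysis was possible because the groups share only 1 replicate number among libraries with values.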
